A study of Mus musculus with 12 samples.

Results

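The genes of the AMPA-type glutamate receptor were followed in the hippocampus of mice with and without knockdown (KD) of Hp1bp3, a chromatin protein related to the linker histones. The group comprised 10 genes, taken by symbol from the 22236 genes of the expected-count table: the pore subunits Gria1, Gria2, Gria3 and Gria4, the transmembrane AMPA receptor regulatory proteins (TARPs) Cacng2, Cacng3 and Cacng8, the auxiliary subunit Shisa9, and the cornichons Cnih2 and Cnih3. All 10 passed the filter on low counts and were among the 15854 genes tested.

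AMPA receptors are tetramers of the Gria-encoded subunits GluA1 to GluA4 and carry most of the fast excitatory current at hippocampal synapses. Auxiliary proteins bind the pore, help to bring it to the surface and the synapse, and set how fast it opens, closes and desensitises. In hippocampal neurons GluA1 and GluA2 are the main pore subunits, TARP gamma-8 (Cacng8) is the prominent TARP, and cornichons and Shisa9 (CKAMP44) further tune the channel.

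Mice were male, 3 to 5 months old, and of the inbred strains C57BL/6J (B6) or DBA/2J (D2). They received an adeno-associated virus in the hippocampus of both hemispheres. The virus encoded a short hairpin RNA against Hp1bp3 (AAV9-shRNA-Hp1bp3, the KD group) or a scrambled hairpin (AAV-scrmb-shRNA, the Ctrl group), and tissue was taken at least 6 weeks later. Every mouse was thus injected with a virus, and no uninjected group was measured. RNA from whole hippocampus was sequenced as 12 libraries, 3 per strain and treatment, although the virus had been delivered to the dorsal part, so the RNA included cells that the virus may not have reached. In such bulk RNA, fewer cells of a type and less RNA per cell cannot be told apart.

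Library totals ran from 18213084 to 39420219 expected counts. Levels are given as CPM, the counts scaled to the library total after TMM adjustment. Hp1bp3 was at 308, 294 and 310 CPM in the B6 Ctrl libraries and at 185, 182 and 259 CPM in the B6 KD libraries, which did not overlap. In D2 it was at 226, 215 and 234 CPM in Ctrl and at 177, 163 and 230 CPM in KD. The library labelled D2 KD 3, at 230 CPM, lay inside the D2 Ctrl range and so went against its label. The mean was 31.3% lower under KD in B6 and 15.7% lower in D2. Averaged over the strains, the difference had p = 0.015 (2-sided exact permutation within strains, the smallest possible p being 0.005). The same permutation gave p = 0.1 in B6 alone, the smallest possible there, and p = 0.3 in D2 alone. Hp1bp3 itself was not called by the edgeR test used below (adjusted p = 0.076 in B6 and 0.0909 averaged, unadjusted p = 0.131 in D2). Because of D2 KD 3, results on KD in D2 are also given without that library. Some are given without D2 Ctrl 3 too, whose omission moved the median of the members further. The mouse numbers in the labels were lower for all B6 KD mice than for all B6 Ctrl mice. In D2 they were lower for all Ctrl mice than for all KD mice, so they ran in opposite directions in the 2 strains. The labels do not say what these numbers record. Anything that followed them could not be told apart from treatment within a strain.

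The pore subunits are close copies of each other, and a stretch of coding sequence in exon 11 holds a glutamine codon at the same place in each. It is printed because Gria2 RNA is edited at this position, where adenosine deamination turns a glutamine codon into an arginine codon (the Q/R site) and makes the channel nearly impermeable to calcium. Sequences are from GENCODE M21 transcripts (GRCm38, the C57BL/6J reference), 5′ to 3′ on the coding strand, with the Q/R codon in capitals.

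Gria1, chr11:57243064-57243108, plus strand: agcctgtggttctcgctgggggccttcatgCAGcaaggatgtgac

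Gria2, chr3:80706899-80706943, minus strand: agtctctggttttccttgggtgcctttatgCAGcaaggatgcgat

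Gria3, chrX:41610235-41610279, plus strand: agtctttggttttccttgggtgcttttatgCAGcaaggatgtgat

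Gria4, chr9:4464125-4464169, minus strand: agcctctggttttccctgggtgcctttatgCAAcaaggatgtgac

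Over these 45 bases, Gria2 and Gria3 shared 42, and Gria1 shared 36 with each of Gria2 and Gria3 and 39 with Gria4. The glutamine codon was CAG in Gria1, Gria2 and Gria3 and CAA in Gria4. A gene count does not see editing, so the edited share was not measured here.

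The TARPs and Shisa9 end in a short tail that binds the PDZ domains of postsynaptic scaffold proteins such as PSD-95. The last 30 coding bases are shown because Cacng2, Cacng3 and Shisa9 are the members with the largest differences below, with the 4 codons before the stop in capitals.

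Cacng2, chr15:77995149-77995178, minus strand, exon 4 of 4: acagccaaccgccggACCACGCCCGTAtga

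Cacng3, chr7:122768817-122768846, plus strand, exon 4 of 4: ccggccaacagacgtACCACGCCTGTCtga

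Cacng8, chr7:3415576-3415605, plus strand, exon 6 of 6: acgctcaacaggaaaACCACGCCCGTGtag

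Shisa9, chr16:12267774-12267803, plus strand, exon 5 of 5: actaacagcaaaacaGAAGTGACTGTCtga

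Of the 12 bases in capitals, Cacng2 shared 11 with Cacng8 and 10 with Cacng3, and the TARP tails code for the same residues. The Shisa9 tail shared 4 to 6 of these bases with the TARPs and codes for other residues.

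To compare levels between genes, CPM was divided by the summed exon length of the gene in kb. In B6 Ctrl hippocampus Gria1 was the most abundant member, at 207 ± 20.3 CPM per kb (SD, n = 3), followed by Cnih2 at 154 ± 12.5, Gria2 at 48.0 ± 6.85 and Cacng8 at 38.5 ± 4.42 CPM per kb. Cnih3 (25.9 ± 4.55), Gria3 (24.7 ± 2.97) and Cacng3 (21.5 ± 3.05) came next, and Cacng2 (15.2 ± 0.684), Shisa9 (14.1 ± 1.69) and Gria4 (13.3 ± 1.17) were lowest on that scale. The ranges over libraries overlapped between Gria2 and Cacng8, among Cnih3, Gria3 and Cacng3, and between Shisa9 and each of Cacng2 and Gria4, so the order of these neighbours was not beyond the spread. Cacng2 (14.7 to 15.98) lay above Gria4 (11.98 to 14.06 CPM per kb) in all B6 Ctrl libraries. Gria1, Cnih2 and Gria2 ranked in that order in all 4 groups. Cacng2 ranked 8 of 10 in B6 Ctrl, 9 in B6 KD, and 10 in both D2 groups. The order depended on the length used: per kb of the mean coding transcript, Gria3 was at rank 4 in place of rank 6 in B6 Ctrl, at 86.5 ± 10.4 CPM per kb, and Cacng2 was at rank 10.

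**Figure D1:**
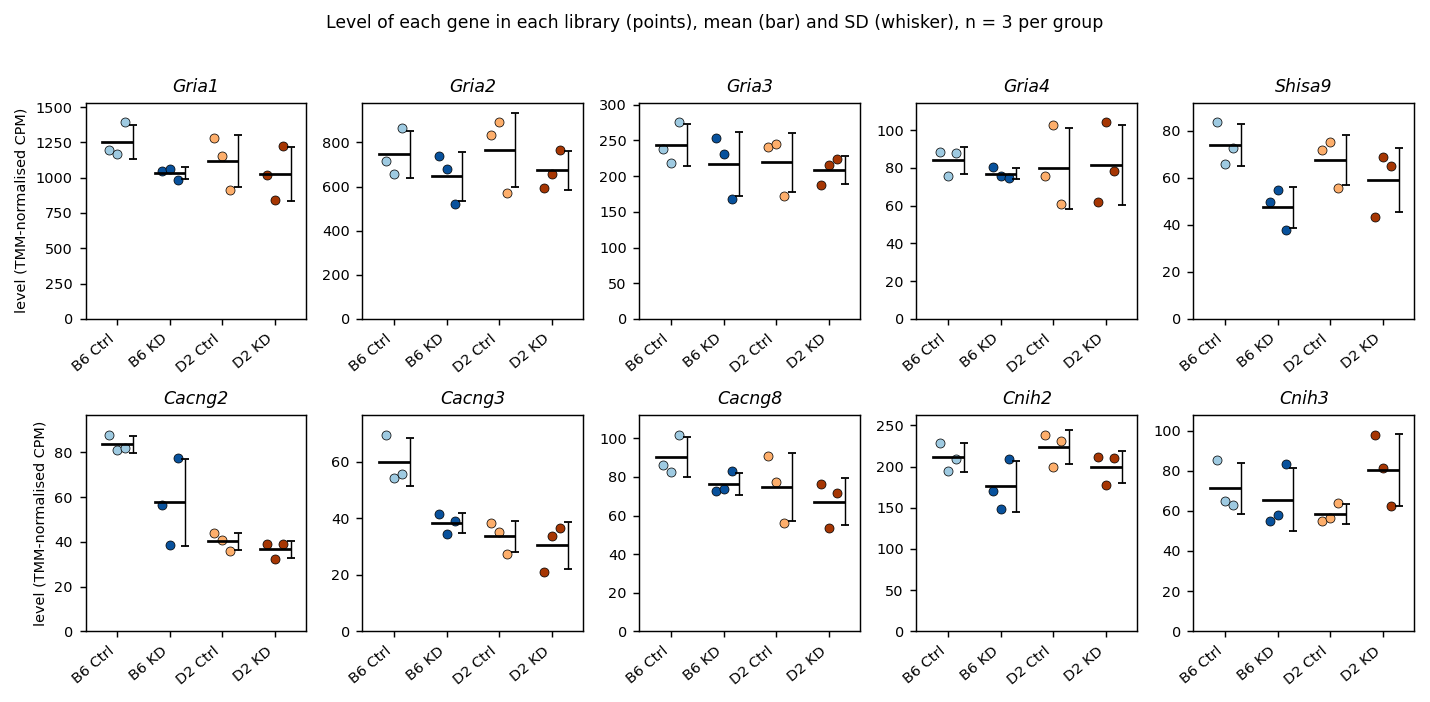
Level of each of the 10 genes (y axis, TMM-scaled CPM, from 0) in each of the 12 libraries by strain and treatment (x axis), where points are libraries, the bar is the mean and the whisker the SD (n = 3). The B6 KD points lie below all B6 Ctrl points for Gria1, Shisa9, Cacng2 and Cacng3, and both D2 groups lie low for Cacng2 and Cacng3.

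The first question was whether lowering Hp1bp3 moved these genes in B6 hippocampus. All 10 estimates were lower in KD than in Ctrl, from -0.65 to -0.12 on the log2 scale, with a median of -0.25 beside 0.00 over all genes tested, and 49.4% of all genes had a lower estimate. None of the 10 passed the test (edgeR's quasi-likelihood test with Benjamini-Hochberg adjustment over all genes, adjusted p under 0.05), where 418 of 15854 genes, 2.64%, did. The unadjusted p was under 0.05 for 3 members, Shisa9, Cacng3 and Cacng2, and for 20.6% of all genes. In 4 of 10 members all 3 KD libraries lay below all 3 Ctrl libraries (Gria1, Cacng2, Cacng3 and Shisa9), which was the case for 14.0% of all genes tested. Leaving out B6 Ctrl 1 turned the estimate of Cnih3 to 0.01, so that 9 of 10 were lower.

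Among the pore subunits, Gria1, which encodes GluA1, the subunit whose delivery to synapses accompanies long-term potentiation, was at 1196, 1167 and 1392 CPM in B6 Ctrl and at 1047, 1061 and 982 CPM in B6 KD. The KD libraries were all lower, but the difference did not pass the test (log2 fold change -0.28 ± 0.15 SE, edgeR adjusted p = 0.322). Gria2, the subunit that carries the edited site, was at 717, 657 and 864 CPM in Ctrl and at 739, 679 and 522 CPM in KD, so that only B6 KD 3 lay below the Ctrl range. Gria3 showed the same layout, at 238, 218 and 275 CPM in Ctrl against 253, 231 and 167 CPM in KD. Gria4, the least abundant pore subunit, was at 88.6, 75.5 and 87.8 CPM in Ctrl and at 80.4, 75.9 and 74.8 CPM in KD. The estimates were -0.21 for Gria2, -0.17 for Gria3 and -0.12 for Gria4, and each 95% interval included 0.

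Shisa9, a type I membrane protein that binds AMPA receptors and modulates short-term plasticity, was at 83.6, 66.1 and 72.6 CPM in B6 Ctrl and at 49.6, 54.8 and 37.9 CPM in B6 KD. Every KD library was lower than every Ctrl library. The log2 fold change was -0.64 ± 0.20 SE (95% interval -1.08 to -0.21, edgeR adjusted p = 0.0941), which missed the threshold. The study had picked Shisa9 out from these same libraries, so its direction is not independent evidence.

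Cacng3 encodes TARP gamma-3. It was at 69.6, 54.3 and 55.5 CPM in B6 Ctrl and at 41.5, 34.3 and 38.9 CPM in B6 KD, again with no overlap. Its log2 fold change was -0.65 ± 0.20 SE (95% interval -1.08 to -0.21, edgeR adjusted p = 0.0989). Under DESeq2, which called 744 of 16832 genes (4.42%) as lower, Cacng3 and Shisa9 passed the threshold (adjusted p = 0.0253 and 0.0228).

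Cacng2 encodes stargazin (gamma-2), the TARP first found through the stargazer mouse. It was at 88.0, 81.0 and 82.1 CPM in B6 Ctrl and at 56.7, 38.7 and 77.6 CPM in B6 KD. The highest KD value was that of B6 KD 3, which also had the most Hp1bp3 of the B6 KD libraries (259 CPM) and lay just under the lowest Ctrl library. With all libraries Cacng2 did not pass the test (-0.54 ± 0.20 SE, edgeR adjusted p = 0.158). Without B6 KD 3 it did, at -0.84 ± 0.16 SE (edgeR adjusted p = 0.0263), in a fit that called 299 of 15992 genes (1.87%) as lower. As that library had the most Cacng2 of the KD group, leaving it out had to make the estimate more negative. In that fit Shisa9, Gria2 and Gria3 became less negative, at -0.54, -0.10 and -0.04. Cnih2, Cnih3 and Cacng8 became more negative, at -0.43, -0.36 and -0.33. Cacng2 was the only member called. Cacng8 was at 86.1, 82.6 and 102 CPM in Ctrl and at 72.5, 74.0 and 82.9 CPM in KD, where B6 KD 3 overlapped the Ctrl range (-0.24, edgeR adjusted p = 0.477).

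The cornichons, which act as chaperones and slow the closing of the channel, overlapped between the B6 groups. Cnih2 was at 229, 195 and 209 CPM in Ctrl and at 170, 149 and 209 CPM in KD (-0.26, edgeR adjusted p = 0.286). Cnih3 was at 85.6, 64.9 and 63.0 CPM in Ctrl and at 55.13, 57.7 and 83.5 CPM in KD (-0.12, edgeR adjusted p = 0.775). In both genes B6 KD 3 was within the Ctrl range.

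**Figure D2:**
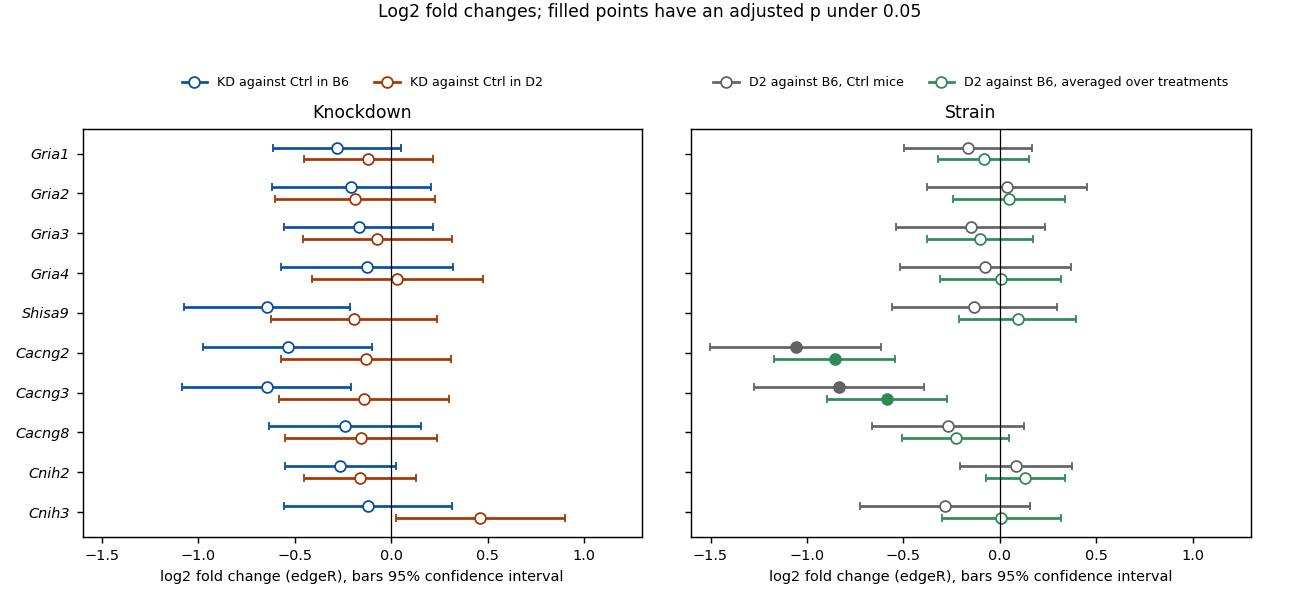
Log2 fold change (x axis) of each gene (y axis) with its 95% confidence interval from edgeR, for KD against Ctrl in B6 and in D2 (left) and for D2 against B6 in Ctrl mice and averaged over treatments (right). Filled points have an adjusted p under 0.05; these are Cacng2 and Cacng3 in the strain panel, and no point of the KD panel is filled.

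In D2 hippocampus 8 of 10 estimates were lower under KD and 2 were higher, with a median of -0.14 beside 0.00 over all genes. No member passed the test, and neither did any other gene (0 of 15854, 0%; 452 genes had an unadjusted p under 0.05 in edgeR, and DESeq2 called 1). No member had all KD libraries below all Ctrl libraries, which held for 3.03% of all genes in D2. Without D2 KD 3 the median over the members was -0.20, with 8 again lower and none called. Leaving out D2 Ctrl 3 instead gave a median of -0.23, with 9 of 10 lower and none called.

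Cnih3 had the lowest unadjusted p of the members in D2. It was at 54.9, 56.4 and 64.0 CPM in D2 Ctrl and at 98.0, 81.3 and 62.2 CPM in D2 KD, where the low value was that of D2 KD 3. Its log2 fold change was 0.46 ± 0.20 SE (95% interval 0.02 to 0.90), with an unadjusted p of 0.0408 and an edgeR adjusted p of 1. Without D2 KD 3 it was 0.62 ± 0.20 SE (edgeR adjusted p = 0.523). As that library had the least Cnih3 of the D2 KD group, leaving it out had to raise the estimate. Shisa9 was at 71.8, 75.4 and 55.6 CPM in D2 Ctrl and at 43.4, 69.0 and 64.9 CPM in D2 KD, with overlapping groups (-0.19). Cacng2, at 43.9, 40.8 and 35.97 CPM in Ctrl and at 38.9, 32.3 and 38.9 CPM in KD, and Cacng3, at 38.2, 34.9 and 27.4 CPM in Ctrl and at 21.0, 33.6 and 36.6 CPM in KD, also overlapped (-0.13 and -0.14). Gria1 was at 1278, 1156 and 914 CPM in D2 Ctrl and at 1018, 843 and 1224 CPM in D2 KD (-0.12), and Gria4 was the other gene with a higher estimate (0.03).

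Averaged over the strains, 9 of 10 estimates were lower, with a median of -0.20 beside 0.01 over all genes. For 4 members (Shisa9, Cacng3, Cacng2 and Cnih2) edgeR gave an unadjusted p under 0.05, as did 19.2% of all genes. None was called, as with all genes (0 of 15854, 0%; 3046 genes had an unadjusted p under 0.05, and DESeq2 called 1217 genes). Without D2 KD 3 the median over the members was -0.24 and again no member was called, in a fit that called 798 of 16068 genes (4.97%) where the fit with all libraries called 0. Leaving out D2 Ctrl 3 instead gave a median of -0.28. That fit called no member and 365 of 16080 genes. With all libraries Shisa9 was closest, at -0.42 ± 0.14 SE (edgeR adjusted p = 0.143). DESeq2, the tool of the study, gave Shisa9 -0.43 ± 0.15 SE in this comparison (DESeq2 adjusted p = 0.0514). Without B6 KD 3, the B6 KD library with the most Cacng2, that gene was called at -0.49 ± 0.11 SE (edgeR adjusted p = 0.0498). In that fit 0.925% of genes were called as lower.

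The interaction asked whether the response to KD differed between the strains. All 10 estimates were positive, that is less negative or more positive in D2, with a median of 0.16 beside 0.00 over all genes. None was called, nor was any other gene (0 of 15854, 0%; 937 genes had an unadjusted p under 0.05, and DESeq2 called 12). The largest was Cnih3 at 0.58 (95% interval -0.04 to 1.202, edgeR adjusted p = 0.844), and no member had an unadjusted p under 0.05. Without D2 KD 3, 9 of 10 estimates were positive and Cnih3 was at 0.74 (edgeR adjusted p = 0.977). That library had the least Cnih3 of the D2 KD group, so its omission had to raise the Cnih3 estimate. Leaving out D2 Ctrl 3 instead, 7 of 10 were positive. A different response in the strains was therefore not shown for any member, and the intervals were wide: for Cacng3 the interval ran from -0.11 to 1.12 and for Shisa9 from -0.15 to 1.06.

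Comparing the strains in Ctrl mice, Cacng2 and Cacng3 were lower in D2 than in B6 and the other 8 members did not pass the test. These 2 of 10 members stand beside 14.0% of all genes called in either direction and 8.75% called as lower. Cacng2 was at 83.7 ± 3.77 CPM in B6 Ctrl and at 40.2 ± 3.97 CPM in D2 Ctrl (SD, n = 3), from the values given above. The log2 fold change was -1.06 ± 0.20 SE (edgeR adjusted p = 0.00393). Cacng3 was at 59.8 ± 8.48 CPM in B6 Ctrl and at 33.5 ± 5.56 CPM in D2 Ctrl (-0.84 ± 0.20 SE, edgeR adjusted p = 0.0157). Cacng3 lost its call when the library total was a covariate (adjusted p = 0.0656, with 7.05% of genes called as lower). It also lost its call without B6 Ctrl 1 (adjusted p = 0.0816, with 6.58% called as lower) and without D2 Ctrl 3 (adjusted p = 0.0609, with 7.66% called as lower).

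Averaged over treatments, the same 2 members were called, again as lower in D2, at -0.86 ± 0.14 SE for Cacng2 (edgeR adjusted p = 0.000958) and -0.58 ± 0.14 SE for Cacng3 (edgeR adjusted p = 0.0112), beside 21.3% of all genes called and 12.7% called as lower. Without D2 KD 3 both members were called as well, at -0.88 and -0.66. No member had all 6 D2 libraries below all 6 B6 libraries, which 9.01% of all genes did. For Cacng2 the library in the way was B6 KD 2, at 38.7 CPM, and for Cacng3 it was again B6 KD 2, at 34.3 CPM. The comparison in Ctrl mice and that of KD in B6 share the B6 Ctrl libraries, so a high value there lowers both estimates.

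B6 reads had been aligned to a B6 genome and D2 reads to a D2 genome, and the estimated counts carried a trace of this. The expected count of Cacng2 was not a whole number in any of the 6 B6 libraries, meaning that some reads were shared out with another feature, and was whole in all 6 D2 libraries. This pattern held for 1514 of the 15854 genes (9.55%), Hp1bp3 among them. Gria1 showed the reverse, which held for 104 genes (0.656%), and Cacng3 showed neither. The part of this, and of the separate genomes, in the strain differences of Cacng2, Cacng3 or any other gene was not tested. In GENCODE M21, exons of Cacng2 also overlap those of A730060N03Rik on the other strand, and exons of Cnih2 those of Yif1a. Whether counting used strand is not given in the sources used here, so reads from these partners cannot be told apart.

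Within the pore, Gria1 made up 70.7 ± 0.852% of the summed pore level per kb of summed exons in B6 Ctrl and 69.4 ± 2.73% in the KD mice of that strain (SD, n = 3). Its share was 68.8 ± 2.44% in D2 Ctrl mice and 68.5 ± 4.46% in their KD counterparts, and the groups overlapped. Gria2 made up between 16.3 ± 0.633% in B6 Ctrl and 18.2 ± 1.39% in D2 Ctrl. Its share was higher in all 3 D2 Ctrl libraries (17.1% to 19.8%) than in all 3 B6 Ctrl libraries (15.7% to 16.9%), and on the mean coding transcript too (21.3% to 24.2% against 19.6% to 20.95%), which is a description with no test. Per kb of the mean coding transcript the Gria1 share in B6 Ctrl was 59.2 ± 0.978% and that of Gria2 was 20.3 ± 0.695%, so these shares depend on the length used. The Gria1 shares of the B6 Ctrl and D2 Ctrl libraries overlapped on that scale too, at 58.6% to 60.3% and 54.4% to 58.9%.

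The shares among the member TARPs varied more between groups. Per kb of summed exons, Cacng8 made up 51.1 ± 4.15% of the summed Cacng2, Cacng3 and Cacng8 level in B6 Ctrl. Under KD in B6 it made up 57.6 ± 3.79%. In D2 the share was 61.9 ± 2.37% in Ctrl and 61.7 ± 6.69% under KD. The 3 D2 Ctrl libraries (59.4% to 64.1%) lay above the 3 B6 Ctrl libraries (47.2% to 55.5%). The mean level of Cacng8 itself was not higher in D2 Ctrl, at 74.9 ± 17.5 CPM against 90.2 ± 10.4 CPM in B6 Ctrl. Its larger share there thus went with the lower Cacng2 and Cacng3 given above. Cacng2 made up 20.2 ± 1.11% in B6 Ctrl and 14.4 ± 1.56% in D2 Ctrl. The summed level of Cacng2, Cacng3 and Cacng8 was 234 ± 13.9 CPM in B6 Ctrl against 172 ± 26.2 CPM under KD. In D2 it was 149 ± 27.0 CPM in Ctrl against 134 ± 13.99 CPM under KD. In this sum every B6 KD library (147 to 199 CPM) was below every B6 Ctrl library (218 to 244 CPM), a layout that 14.0% of all genes tested showed. Cacng4 and Cacng7, TARPs of the lists below, were not part of the sum or the shares. Cacng7 alone was at 115 CPM in B6 Ctrl and 39.7 CPM in D2 Ctrl. These sums describe the members above and carry no test of their own.

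**Figure D3:**
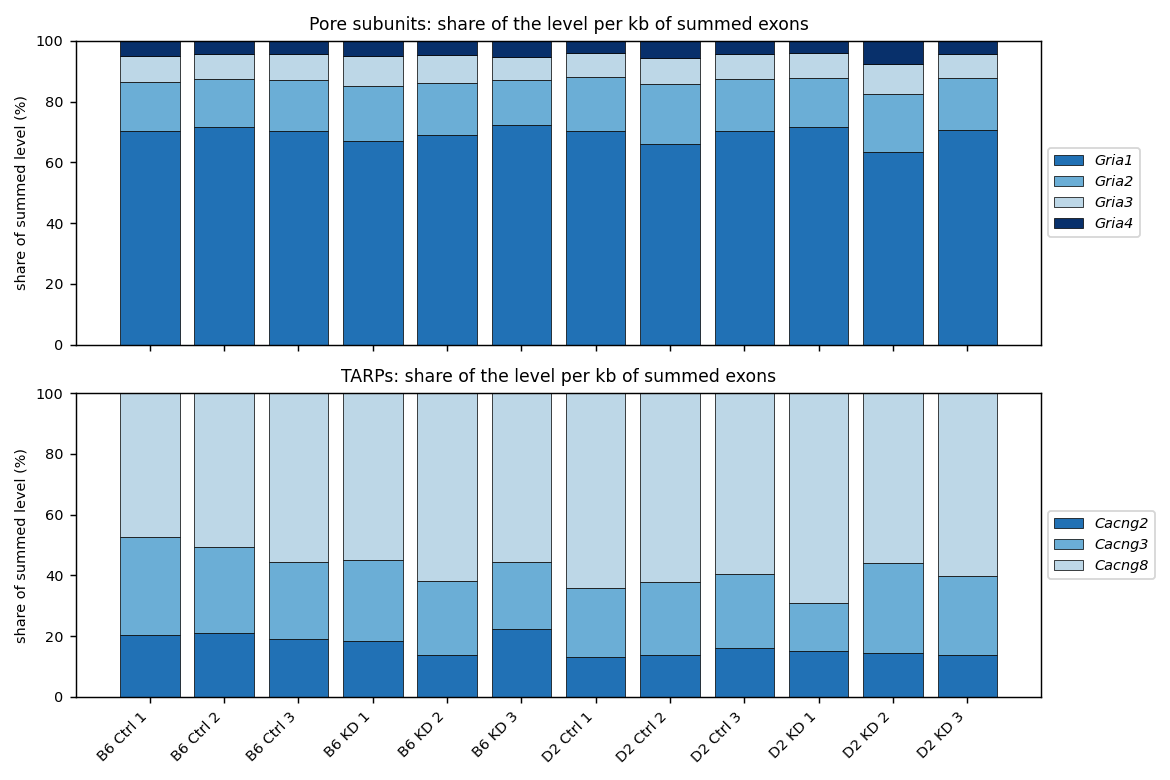
Share of the summed level per kb of exon (y axis, percent) taken by each pore subunit (top) and each of the TARPs Cacng2, Cacng3 and Cacng8 (bottom) in each library (x axis). Gria1 takes 63.4% to 72.3% of the pore level in every library. Cacng8 takes a larger share of the summed Cacng2, Cacng3 and Cacng8 level in D2 Ctrl than in B6 Ctrl libraries. Its own mean level is not higher there.

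Other genes of AMPA receptor biology were taken from lists of named members. Of 17 further auxiliary and accessory genes tested, 14 had a lower estimate in B6 KD, with a median of -0.21, and 2 were called beside the 2.64% of all genes. Shisa7, a relative of Shisa9, was at 273 ± 32.2 CPM in Ctrl and 184 ± 10.3 CPM in KD (-0.57 ± 0.12 SE, edgeR adjusted p = 0.0415). Syndig1, a membrane protein of excitatory synapses, was at 23.5 ± 3.15 and 36.5 ± 3.97 CPM (0.64 ± 0.14 SE, edgeR adjusted p = 0.0449). Both calls were lost with the library total as covariate, where no gene was called in B6 KD. The same held without B6 Ctrl 1, B6 Ctrl 3, B6 KD 1, B6 KD 2 or D2 Ctrl 1. None of the 17 was called in D2, averaged over the strains, or in the interaction.

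Between the strains in Ctrl mice, 5 of the 17 were lower in D2 and none higher, beside 8.75% of all genes called as lower and 14.0% called either way. The smallest p-values were those of Prrt1, at 166 ± 18.4 against 25.3 ± 3.43 CPM, Cacng7, at 115 ± 6.45 against 39.7 ± 1.73 CPM, and Cacng4, at 27.3 ± 2.14 against 6.51 ± 0.353 CPM, in B6 and D2 respectively. Prrt1 (SynDIG4) is an AMPA receptor-associated protein and Cacng7 and Cacng4 are TARPs. Their log2 fold changes were -2.72, -1.54 and -2.07, with edgeR adjusted p-values of 5.51e-07, 2.85e-06 and 1.32e-05. The strains were aligned to separate genomes, and the part of this in these differences and in those of the lists below was not tested. Averaged over treatments, 5 were lower, these 3 among them, and Shisa7 was higher (0.27 ± 0.08 SE, edgeR adjusted p = 0.0442), beside 12.7% of all genes called as lower and 21.3% called either way.

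Of 24 genes of receptor trafficking and anchoring, 20 had a lower estimate in B6 KD, with a median of -0.17, and none was called in any KD comparison or in the interaction. Syt7, a calcium sensor for membrane fusion, had the smallest p in B6 KD, at 468 ± 33.4 CPM in Ctrl and 334 ± 41.8 CPM in KD (-0.49 ± 0.13 SE, edgeR adjusted p = 0.0723). In Ctrl mice 2 of the 24 were lower in D2, a share near the 8.75% of all genes called as lower. They were Nptxr, a neuronal pentraxin receptor that clusters AMPA receptors, at 1152 ± 127 against 273 ± 25.7 CPM (-2.08, edgeR adjusted p = 0.00281), and Grip1, a scaffold that binds GluA2, at 33.0 ± 3.51 against 20.4 ± 3.30 CPM (-0.70, edgeR adjusted p = 0.0139). Pick1, which binds the tail of GluA2, had the next smallest p, at -0.28 (edgeR adjusted p = 0.0612). Averaged over treatments, Nptxr, Grip1 and Pick1 were lower and Dlg2, a relative of PSD-95, was higher at 1.00 ± 0.22 SE (edgeR adjusted p = 0.00587), 4 of the 24 beside 21.3% of all genes.

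Of the RNA-editing enzymes, Adarb1 (ADAR2), which edits the Q/R site of Gria2, had estimates of -0.20 in B6 KD and -0.12 in D2 KD and did not pass either test (edgeR adjusted p = 0.527 and 1). Its relative Adarb2, held to lack editing activity, had the smallest p of the 3 in B6 KD (-0.51, edgeR adjusted p = 0.177). In Ctrl mice Adarb2 and Adar were lower in D2, at -1.09 ± 0.20 SE and -0.26 ± 0.07 SE (edgeR adjusted p = 0.00348 and 0.0358), and both were lower averaged over treatments. Over all genes tested, 8.75% were called as lower in Ctrl mice and 12.7% averaged over treatments.

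Marker genes of cell types and hippocampal regions also differed between the groups, and their part in the results above was not tested. The lists hold genes known to mark a cell type or region, and their summed CPM is given. The 6 CA1 markers summed to 586 to 772 CPM in B6 Ctrl and to 424 to 525 CPM in B6 KD, without overlap. All 6 estimates were lower, with a median of -0.53, and none was called. Over all genes tested in B6, 14.0% had all KD libraries below all Ctrl libraries, and 2.64% were called. In D2 the CA1 sums overlapped, at 535 to 580 CPM in Ctrl and 455 to 600 CPM in KD. The 10 pan-neuronal markers summed to 6411 to 6959 CPM in B6 Ctrl and to 5531 to 6636 CPM in B6 KD, with 8 of 10 lower, a median of -0.14 and none called. The 8 pyramidal neuron markers and 10 interneuron markers had medians of -0.16 and -0.26, the 6 dentate markers had a median of -0.47 and the 5 tested CA3 markers one of 0.30, with none called in B6 KD in these 4 lists.

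Microglial markers summed to 414 to 469 CPM in B6 Ctrl and to 538 to 847 CPM in B6 KD. All 10 estimates were higher and 1 was called. Interferon-response genes summed to 92.4 to 115 CPM in B6 Ctrl and to 539 to 1624 CPM in B6 KD. Of these genes, 14 of 15 were called as higher. Over all genes tested in B6, 1.76% were called as higher, and 13.9% had all KD libraries above all Ctrl libraries. In D2 KD the interferon sums were 446, 596 and 131 CPM, the low value being that of D2 KD 3, beside 106 to 269 CPM in D2 Ctrl. Astrocyte and endothelial markers had medians of 0.23 and 0.41 in B6 KD, with 1 and 0 of 10 called, and oligodendrocyte and precursor markers had medians of -0.05 and 0.04, with none called. The markers of choroid plexus, a tissue beside the hippocampus, ran from 230 to 8396 CPM over the 12 libraries with low and high libraries in each group, for example 253, 4213 and 431 CPM in B6 Ctrl and 423, 6601 and 7696 CPM in B6 KD. No list had a marker at or under 3 counts in every library.

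**Figure D4:**
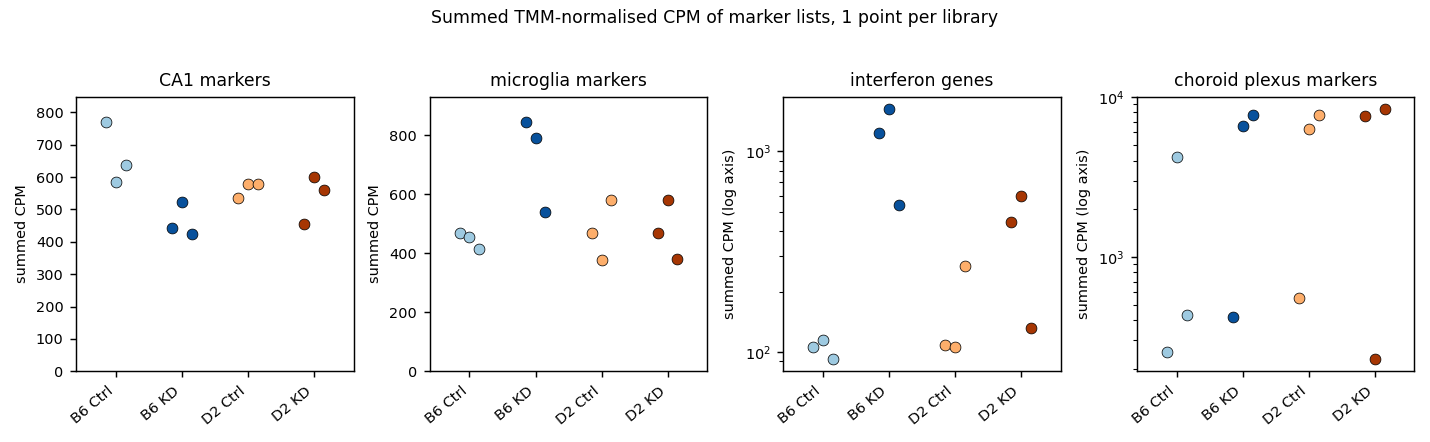
Summed CPM (y axis) of the CA1, microglia, interferon and choroid plexus lists in each library by group (x axis), the interferon and choroid plexus panels on a log axis. CA1 sums are lower and microglia and interferon sums higher in all B6 KD libraries than in all B6 Ctrl libraries, and the choroid plexus sum varies within each group.

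The genes with the level pattern most like the members called between strains were found by Pearson correlation of log2(CPM + 1) over the 12 libraries, which share strain and treatment. For Cacng2 these were Opa3 (r = 0.980), Nop56 (0.976) and 2410004B18Rik (0.965). For Cacng3 they were Rexo4 (0.971), Nfkbid (0.967) and Gfra4 (0.963). These values describe the 12 libraries only.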

How the data were processed

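Hippocampal RNA of 12 mice was grouped by the labels' strain and treatment. Replicates were numbered in order of deposit. The authors aligned B6 and D2 reads each to the genome of that strain, and the deposited expected counts are their RSEM estimates per gene (RSEM 1.2.12 and Bowtie2 2.2.0 per the submitters' processing notes, which name GRCm38), not normalized. Reads of 2 runs were joined for 10 of 12 samples. A second table of the authors' DESeq2-normalized counts was not used.

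Expected counts were rounded to whole numbers, filtered with filterByExpr over the 4 groups, TMM-scaled and tested with edgeR 4.0.16 (quasi-likelihood, robust, 1 mean per group, R 4.3.3) for 6 contrasts. Benjamini-Hochberg adjusted p-values over all 15854 genes under 0.05 were called. The SE was the log2 fold change over the square root of F, so it is approximate. DESeq2 1.42.0, limma 3.58.1 and other normalizations were alternatives. The fit was tested on simulated data. Replicate libraries differed beyond counting noise. They are separate mice, and with 3 per group precision is set by their spread.

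All 10 members were named. Of the other lists, genes called under KD or in the interaction were named, as were the 3 smallest p-values per list between strains and, in a list without calls, the gene with the smallest p in B6 KD. Members and lists were chosen with earlier results of these data known. Gene positions and lengths are from GENCODE M21.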

Additional observations from a re-analysis of the deposited data

How the results depend on the processing

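Estimates of the 10 genes kept their direction in the 7 alternatives with all libraries, except Cnih2 in the interaction (-0.0247 with the library total as covariate) and Gria4 between strains averaged over treatments (-0.0288 with limma-voom). Counts of calls depended on the tool. In B6 KD 418 genes were called, 1653 by DESeq2, which included 2 members, and 0 with the library total as covariate. In D2 KD DESeq2 called 1, averaged over strains 1217 (15 with the newer quasi-likelihood method) and in the interaction 12. With the library total as covariate, 1 member was called between strains in Ctrl. Leaving out each library in turn, genes called ran from 0 to 790 in B6 KD (790 without B6 KD 3), 0 to 1 in D2 KD and 0 to 798 averaged over strains (798 without D2 KD 3). In B6 KD no gene was called without B6 Ctrl 1, B6 Ctrl 3, B6 KD 1, B6 KD 2 or D2 Ctrl 1. Members called ran from 0 to 1 in B6 KD and averaged, and from 1 to 2 between strains in Ctrl (1 without B6 Ctrl 1 or without D2 Ctrl 3). The cause was not tested. Estimates near 0 changed sign: in B6 KD Cnih3 (-0.36 to 0.0061); in D2 KD Gria1 (-0.26 to 0.0067), Gria3 (-0.22 to 0.0169), Gria4 (-0.18 to 0.26) and Cacng3 (-0.29 to 0.0537); averaged over strains Gria4 (-0.15 to 0.0657); in the interaction Gria2 (-0.13 to 0.14), Gria3 (-0.0447 to 0.24), Gria4 (-0.0570 to 0.38) and Cacng8 (-0.0689 to 0.27); between strains in Ctrl Gria2 (-0.0845 to 0.20) and Gria4 (-0.30 to 0.0816); and between strains averaged over treatments Gria2 (-0.0127 to 0.14), Gria4 (-0.11 to 0.10) and Cnih3 (-0.0639 to 0.13). No paired analysis was possible because the labels give no replicate numbers that groups share. Within a strain the members' SEs for KD ran from 0.13 to 0.20 with 3 mice per group, which limits what these fits could call.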
